A study of Mus musculus with 6 samples.

Results

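The 9 genes described here carry out the making of red blood cells: the transcription factors Gata1, Klf1 and Nfe2, the erythropoietin receptor Epor, the heme and iron genes Alas2, Fech, Slc25a37 and Tfrc, and the red cell membrane protein Slc4a1. They were taken by symbol from a table of 17741 rows, and all 9 were found. The choice was by function, but it was made with earlier results of these data known. The libraries are RNA-seq of C57BL/6 mouse fetuses at 9.0 dpc (days post coitum), 3 wild type (WT) and 3 overexpressing KLF12, a zinc-finger transcription factor whose high level was studied as a cause of neural tube defects. The tissue is the fetus, and how KLF12 was overexpressed, and whether a library is 1 fetus or a pool, is not given in the sources used here, so a p-value here weighs the difference against library spread alone, part of which may be technical.

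At this stage of mouse development the circulating red cells are primitive erythroid cells, which arise in the yolk sac blood islands and enter the embryo with the onset of the heartbeat. GATA1 and KLF1 bind GATA and CACCC sequences and switch on globin, heme and membrane genes together, with NF-E2 acting at the globin locus and erythropoietin signalling supporting survival. Iron enters through the transferrin receptor, passes into the mitochondrion through mitoferrin, and is put into the porphyrin ring whose synthesis ALAS2 starts. KLF12 belongs to the same Krüppel-like family as KLF1, whose members share a preference for CACCC and GC-rich DNA.

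Klf12 itself was at 1.99, 2.11 and 1.32 FPKM (fragment counts scaled to transcript length and library total) in WT libraries 1 to 3 and at 16.4, 15.2 and 23.9 in KLF12 libraries 1 to 3, with limma, a linear model with a shared variance, giving an adjusted p of 0.00113. FPKM summed to between 528236 and 635381 per library, with KLF12 library 3 the lowest. The Y-linked gene Ddx3y was listed at 0 in KLF12 libraries 1 and 2, at 6.62 FPKM in KLF12 library 3 and at 1.80 to 4.45 in WT. KLF12 libraries 1 and 2 also held most of the low erythroid values. Of the genes described here, 8 were below all WT libraries in KLF12 library 1, 7 in library 2 and 2 in library 3. The share of all genes so placed in each library was not computed, so how unusual these counts are is not shown. Without KLF12 library 3, 23.2% of all genes had KLF12 libraries all below WT. Gata1 and Alas2 lie on the X chromosome. The part of fetal sex in the values of these genes, X-linked or not, was not tested. Globin transcripts were abundant in all 6 libraries, with 5 globin genes, among them the adult-type Hba-a1 and Hba-a2, summing to between 1323 and 11623 FPKM. The embryonic gene Hbb-y alone ranged from 220 to 3012 FPKM over the 6 libraries, so each held embryonic blood. In whole fetuses, fewer erythroid cells and less of a transcript per cell cannot be told apart.

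The promoters of 4 members are printed as examples of windows with sequences that the member factors GATA1 and KLF1 recognise. Tfrc also held such matches and is described below without its sequence. RefSeq promoter sequences (GRCm38.p6) were used for 5 of the 9 genes, Gata1, Klf1, Epor, Alas2 and Tfrc, and not for Fech, Nfe2, Slc25a37 and Slc4a1. The 250 bases before the start site are printed 5′ to 3′ in the direction of transcription, and capitals mark matches to a GATA motif (GATA with A or T before it and A or G after it) or a CACCC motif (CCNCACCC), each searched on both strands.
Alas2, chrX:150547167-150547416, plus strand: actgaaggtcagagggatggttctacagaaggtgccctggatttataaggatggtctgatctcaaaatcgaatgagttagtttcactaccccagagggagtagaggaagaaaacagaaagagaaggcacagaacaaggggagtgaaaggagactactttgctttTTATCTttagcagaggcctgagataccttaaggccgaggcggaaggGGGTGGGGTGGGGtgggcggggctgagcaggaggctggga
Epor, chr9:21963577-21963826, minus strand: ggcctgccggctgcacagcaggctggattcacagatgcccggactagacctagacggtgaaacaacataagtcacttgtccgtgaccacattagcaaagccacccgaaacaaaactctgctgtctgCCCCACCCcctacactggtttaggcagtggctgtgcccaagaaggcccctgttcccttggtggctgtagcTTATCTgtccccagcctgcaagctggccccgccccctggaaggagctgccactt
Klf1, chr8:84901732-84901981, plus strand: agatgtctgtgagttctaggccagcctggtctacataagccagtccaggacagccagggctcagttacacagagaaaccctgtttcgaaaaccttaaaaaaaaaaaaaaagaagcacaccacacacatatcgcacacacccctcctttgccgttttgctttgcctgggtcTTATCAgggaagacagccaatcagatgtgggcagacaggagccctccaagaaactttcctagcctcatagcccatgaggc
Gata1, chrX:7967911-7968160, minus strand: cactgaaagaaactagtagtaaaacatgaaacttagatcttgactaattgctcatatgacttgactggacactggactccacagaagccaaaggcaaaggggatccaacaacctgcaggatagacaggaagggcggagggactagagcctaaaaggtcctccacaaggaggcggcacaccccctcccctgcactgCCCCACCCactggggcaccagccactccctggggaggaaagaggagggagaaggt

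The Alas2 window held a GATA match at positions -86 to -81 from the start site and 2 overlapping CACCC matches nearer to it, all on the strand opposite to transcription. Epor held a GATA match at -54 to -49 and a CACCC match at -124 to -117. Klf1 held a GATA match alone, and Gata1 a CACCC match alone. The 2 listed start sites of Tfrc each had a CACCC match and no GATA match. Over all 32851 promoter windows of the same length, 26.5% held a GATA match, 14.9% a CACCC match and 2.85% both, as Alas2 and Epor did. GATA and CACCC matches did not overlap each other. A match is a run of letters and was not tested as a binding site.

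Alas2 and Tfrc also carry iron-responsive elements, hairpins bound by iron regulatory proteins when iron is low, which block translation from the 5′ UTR of Alas2 and protect Tfrc mRNA from decay through its 3′ UTR. They are shown because the Tfrc mRNA level is known to follow iron supply through them. A search of 1 GENCODE M21 transcript per gene for a C, 5 bases, the loop CAGTGN with a last base other than G, and 5 bases able to pair with the first 5 found 1 element in Alas2, 4 in Tfrc and 0 in each of the other 7 members. Capitals mark the loop.
Alas2 element 1, 5′ UTR: ggttcgtcctCAGTGCagggcaaca
Tfrc element 1, 3′ UTR: ttatcggaagCAGTGCcttccataa
Tfrc element 2, 3′ UTR: ttatcgggagCAGTGTcttccataa
Tfrc element 3, 3′ UTR: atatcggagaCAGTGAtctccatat
Tfrc element 4, 3′ UTR: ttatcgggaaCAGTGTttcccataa

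Of 21877 protein-coding transcripts searched, 0.932% held at least 1 such hairpin, and 1, that of Tfrc, held at least 4.

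All 9 genes had lower mean FPKM in the KLF12 group, but none passed the test across all genes. The log2 difference, KLF12 minus WT on the log2(FPKM + 1) scale, ran from -1.46 for Slc4a1 to -0.16 for Tfrc, with a median of -0.75, against a median of -0.02 over the 12141 genes tested, of which 52.7% were negative. By limma with Benjamini-Hochberg adjustment over all genes, 0 of the 9 were called at an adjusted p under 0.05, where 0.733% of all genes were called and 0.634% were called lower. At an unadjusted p under 0.05, 5 of the 9 were lower (Gata1, Klf1, Epor, Alas2 and Slc4a1), against 6.32% of all genes. In either direction, 1322 of the 12141 genes tested were under that limit. The unadjusted counts given below for other gene lists are also in either direction and are to be read beside that number. The groups did not overlap for 2 of the 9, Gata1 and Alas2, where 8.98% of all genes had KLF12 libraries all below WT. All 9 had a mean of at least 1 FPKM in both groups, so none entered the test through WT alone. When limma was fitted with array weights, which weighted KLF12 library 3 at 0.206 and library 1 at 3.13, 6 of the 9 were called lower (Gata1, Klf1, Epor, Alas2, Slc25a37 and Slc4a1, the last with the smallest adjusted p of 0.00451), in a fit that called 8.44% of all genes lower.

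**Figure D1:**
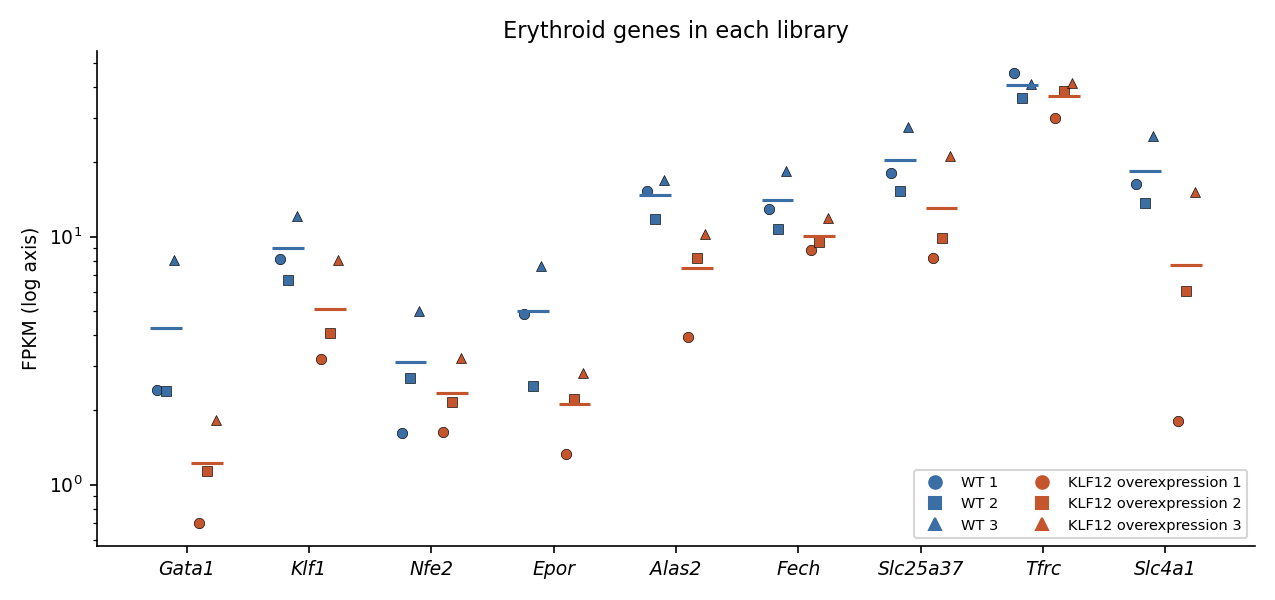
FPKM (log axis) of the 9 genes in each library, with WT in blue, KLF12 overexpression in orange, a symbol shape per replicate number and a bar at each group mean (n = 3). WT library 3 is highest in 8 of the 9 genes, KLF12 library 1 is lowest in 8, and the groups are separate in Gata1 and Alas2.

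Gata1 (NCBI gene 14460), the zinc-finger factor without which primitive red cells do not mature, was at 2.41, 2.39 and 8.01 FPKM in WT libraries 1 to 3 and at 0.70, 1.14 and 1.82 in KLF12 libraries 1 to 3. Each KLF12 library lay below each WT library, and WT library 3 was far above the other two. Mean levels were 4.27 ± 3.24 and 1.22 ± 0.564 FPKM (SD, n = 3), a log2 difference of -1.11 ± 0.40 (SE; limma adjusted p = 0.338). The lowest value, in KLF12 library 1, corresponds to roughly 23 fragments at the estimated depth, and the difference was -0.65 without WT replicate 3.

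Klf1 (16596), the CACCC-binding activator of beta-globin and many red cell genes, was at 8.15, 6.66 and 12.14 FPKM in the WT libraries and 3.21, 4.09 and 8.07 in the KLF12 ones. KLF12 library 3 lay inside the WT range and the other two below it. Its log2 difference was -0.75 ± 0.31 (SE; adjusted p = 0.423 by limma). The Klf1 difference was -0.52 without KLF12 replicate 1 and -0.53 without WT replicate 3, against -1.07 without KLF12 replicate 3.

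Nfe2 (18022), the blood-specific subunit of the NF-E2 dimer, was at 1.61, 2.70 and 5.03 FPKM in the WT libraries and 1.63, 2.16 and 3.25 in the KLF12 ones. The groups overlapped over most of their range, and the lowest value of all was in WT library 1. The log2 difference was -0.24 ± 0.33 (limma adjusted p = 0.876), with a 95% interval from -0.99 to 0.51, and it was 0.078 without WT replicate 3, so its direction rested on that library. It was -0.081 without KLF12 replicate 1, -0.43 without KLF12 replicate 3 and -0.53 without WT replicate 1.

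Among 23 other erythroid transcription regulators listed, 18 were tested and 0 were called by limma in either direction (2 at an unadjusted p under 0.05), with 13 negative values and a median log2 difference of -0.05. The largest difference was in Klf3, a Krüppel-like repressor, at 12.6, 13.9 and 14.4 FPKM in the WT libraries and 3.12, 2.41 and 8.06 in the KLF12 ones, with a log2 difference of -1.54 ± 0.33 (SE; limma adjusted p = 0.0831). All 3 KLF12 libraries lay below WT for Klf3. Tal1, a helix-loop-helix partner of GATA1, was at 6.02 ± 2.14 and 5.16 ± 1.70 FPKM, and Zfpm1, the GATA1 cofactor FOG1, at 20.7 ± 1.77 and 20.7 ± 6.36 (SD, n = 3); the groups of both overlapped. Tal1 and Zfpm1 were named after their values were seen. Bach1, a heme-regulated repressor, was at 9.44 ± 1.79 and 12.7 ± 0.901 FPKM (limma adjusted p = 0.442).

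Epor (13857), the cytokine receptor through which erythropoietin acts, was at 4.88, 2.51 and 7.62 FPKM in the WT libraries and 1.33, 2.22 and 2.82 in the KLF12 ones. KLF12 library 3 lay just above WT library 2 and the other two below all WT libraries. The log2 difference was -0.88 ± 0.34 (SE; adjusted p = 0.382 by limma). It was -0.57 without WT replicate 3.

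Of 17 genes of erythropoietin and stem cell factor signalling, 15 were tested, 0 were called by limma (2 at an unadjusted p under 0.05), and 10 were negative, with a median of -0.12. Pim1, a kinase gene induced by STAT5, was at 21.3 ± 1.25 FPKM in the WT libraries and 31.2 ± 5.44 in the KLF12 group, with groups apart (limma adjusted p = 0.231). Socs2, a feedback inhibitor of cytokine signalling, was at 9.75 ± 1.47 and 6.46 ± 1.27 FPKM, also apart (adjusted p = 0.347 by limma). Jak2, the kinase bound to EPOR and named after its values were seen, was at 5.25 ± 0.388 and 5.51 ± 0.309 FPKM (SD, n = 3). The ligand gene Epo, also named after its values were seen, was at 1.27, 0.71 and 3.06 FPKM in the WT libraries and 0.68, 0.58 and 0.63 in the KLF12 ones (limma adjusted p = 0.576). Each KLF12 library was below each WT library for Epo, at levels under 1 FPKM.

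Alas2 (11656), the erythroid enzyme that starts heme synthesis, was at 15.3, 11.8 and 16.9 FPKM in the WT libraries and 3.95, 8.23 and 10.2 in the KLF12 ones. All 3 KLF12 libraries lay below all WT libraries. Mean levels were 14.7 ± 2.63 and 7.47 ± 3.21 FPKM (SD, n = 3). The log2 difference of -0.95 ± 0.29 (SE) had the smallest adjusted p of the 9 genes, 0.248 by limma, and a 95% interval from -1.61 to -0.30. It was -0.61 without KLF12 replicate 1.

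Fech (14151), the ferrochelatase that inserts iron into the porphyrin ring at the end of the pathway, was at 12.9, 10.8 and 18.4 FPKM in the WT libraries and 8.80, 9.49 and 11.9 in the KLF12 ones. KLF12 libraries 1 and 2 lay below WT and library 3 inside its range. The log2 difference was -0.42 ± 0.21 (SE; limma adjusted p = 0.518), and -0.22 without WT replicate 3.

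Slc25a37 (67712), which encodes mitoferrin-1, the mitochondrial iron importer of red cell precursors, was at 18.02, 15.23 and 27.71 FPKM in the WT libraries and 8.18, 9.83 and 21.1 in the KLF12 ones. KLF12 library 3 lay above WT libraries 1 and 2. The log2 difference was -0.67 ± 0.33 (SE; adjusted p = 0.514 by limma). It was -0.42 without KLF12 replicate 1, -0.43 without WT replicate 3 and -1.05 without KLF12 replicate 3.

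Tfrc (22042), the transferrin receptor, which dividing cells of many types also express, was at 45.5, 36.2 and 41.1 FPKM in the WT libraries and 30.1, 38.7 and 41.6 in the KLF12 ones. KLF12 libraries 2 and 3 lay inside the WT range and library 1 below it. The log2 difference was -0.16 ± 0.16 (limma adjusted p = 0.808), with a 95% interval from -0.51 to 0.20. It was -0.022 without KLF12 replicate 1 and -0.079 without WT replicate 1, against -0.25 without KLF12 replicate 3 and -0.24 without WT replicate 2.

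Of 22 further heme genes, 21 were tested and 0 were called by limma (4 at an unadjusted p under 0.05), with 14 negative values and a median log2 difference of -0.25; 4 had KLF12 libraries all below WT, beside 8.98% of all genes. Those 4 were Alad and Uros, which act early in porphyrin synthesis, Abcb10, a mitochondrial transporter that stabilises mitoferrin-1, and Blvrb, a biliverdin reductase abundant in red cells. Blvrb was at 29.0 ± 9.30 and 12.4 ± 3.28 FPKM (limma adjusted p = 0.0988) and Abcb10 at 11.8 ± 1.31 and 6.18 ± 2.26 (SD, n = 3; limma adjusted p = 0.167). Alad was at 49.8 ± 5.83 and 35.8 ± 7.07 FPKM and Uros at 16.3 ± 1.76 and 10.9 ± 2.33. Alas1, the housekeeping form of the first enzyme, was at 11.2 ± 1.17 and 8.83 ± 1.32 FPKM, with overlapping groups. Alad, Uros and Alas1 were named after their values were seen.

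Of 22 iron genes, 19 were tested (4 at an unadjusted p under 0.05 by limma). Of the 19, 14 were negative, with a median log2 difference of -0.06. By limma 0 were called lower and 1 was called higher, beside 12 of 12141 over all genes called higher. The called gene was Heph, hephaestin, a copper-dependent iron oxidase, which rose from 6.15 ± 0.645 to 12.3 ± 0.886 FPKM (limma adjusted p = 0.0453). Yolk sac markers summed to 488 to 729 FPKM in the same KLF12 libraries against 153 to 595 in WT, and their part in the Heph value was not tested. Trf, the transferrin gene, which the yolk sac endoderm also makes, was at 11.1, 3.73 and 1.87 FPKM in the WT libraries and 10.2, 15.2 and 10.2 in the KLF12 ones. WT library 1 reached the KLF12 range for Trf, and this gene too was named after its values were seen.

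Slc4a1 (20533), the anion exchanger band 3 and the main protein of the red cell membrane, was at 16.3, 13.6 and 25.4 FPKM in the WT libraries and 1.81, 6.03 and 15.2 in the KLF12 ones. KLF12 library 1 was the farthest below WT and library 3 lay inside the WT range. Means were 18.4 ± 6.17 and 7.66 ± 6.82 FPKM (SD, n = 3). The log2 difference of -1.46 ± 0.53 (SE; limma adjusted p = 0.348) was the largest of the 9 and had the widest interval, from -2.66 to -0.27. Without KLF12 replicate 3 it was -2.08 and passed the test (adjusted p = 0.0437 by limma), in a fit that called 2.69% of all genes and 1.95% lower. Without KLF12 replicate 1 it was -0.82 (limma adjusted p = 0.660).

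Of 25 further red cell membrane and skeleton genes, 24 were in the table and 20 were tested; 0 were called by limma (9 at an unadjusted p under 0.05), 16 were negative, and the median log2 difference was -0.47. The KLF12 libraries all lay below WT for 9 of the 20, beside 8.98% of all genes. Ermap, an erythroid membrane protein gene, was at 2.28, 1.64 and 4.51 FPKM in the WT libraries and 0.63, 0.57 and 1.22 in the KLF12 ones (limma adjusted p = 0.263). Dmtn, the actin-bundling protein dematin, was at 4.80 ± 0.184 and 2.18 ± 1.46 FPKM (limma adjusted p = 0.264). The glycophorin gene Gypc, named after its values were seen, was at 5.97 ± 0.159 and 3.65 ± 1.34 FPKM (SD, n = 3), with groups apart.

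**Figure D2:**
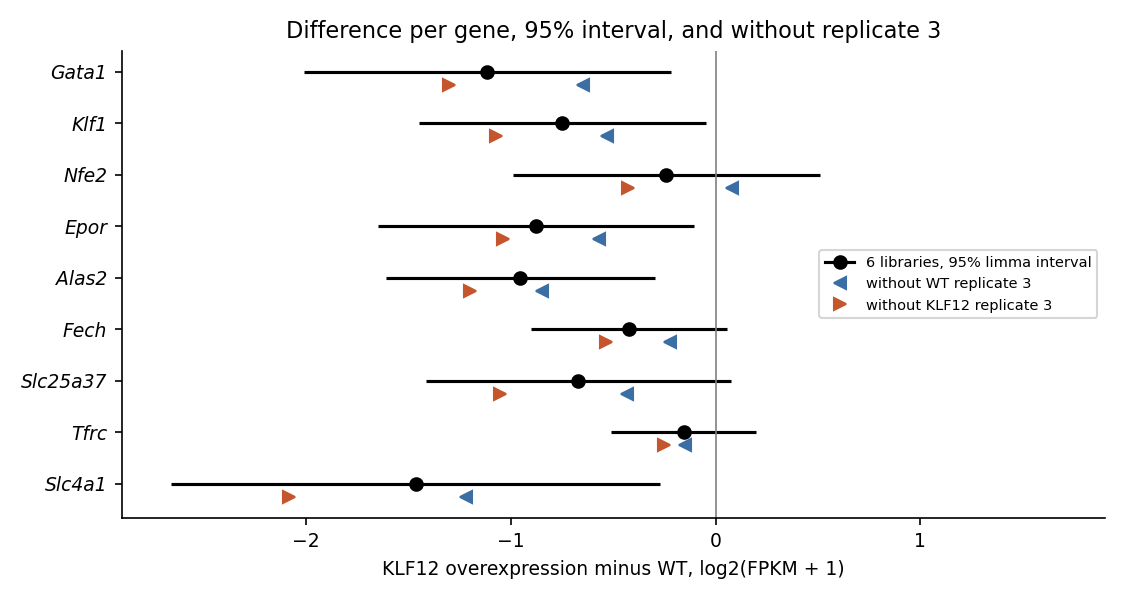
KLF12 minus WT difference on the log2(FPKM + 1) scale for each gene, with black points and lines for the estimate from 6 libraries and its 95% limma interval, and triangles for the estimates without replicate 3 of WT (blue) or of the KLF12 group (orange). The intervals of Nfe2, Fech, Slc25a37 and Tfrc include 0, and leaving out WT replicate 3 moved Nfe2 to 0.078. Intervals are per gene and not adjusted for the number of genes tested, and 0 of the 9 genes were called after adjustment.

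By level, Tfrc was the highest of the 9 in both groups (means of 40.9 and 36.8 FPKM), and in WT its range did not meet that of the next gene. In WT it was followed by Slc25a37, Slc4a1, Alas2, Fech, Klf1, Epor, Gata1 and Nfe2, and the WT ranges of each pair of neighbours from Slc25a37 down overlapped. In the KLF12 group the order below Slc25a37 was Fech, Slc4a1, Alas2, Klf1, Nfe2, Epor and Gata1. Epor and Nfe2 differed there by less than their SDs (2.12 ± 0.750 and 2.35 ± 0.826 FPKM, n = 3).

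The 9 genes were mostly high or low in the same libraries, within as well as between the groups. WT library 3 held the highest value for 8 of the 9 genes and KLF12 library 1 the lowest for 8. The exceptions were Tfrc, highest in WT library 1, and Nfe2, lowest in WT library 1. The median deviation of the 9 from their WT means on the log2 scale was -0.09, -0.34 and 0.47 in WT libraries 1 to 3 and -1.21, -0.80 and -0.20 in KLF12 libraries 1 to 3. KLF12 library 3 thus lay between WT libraries 1 and 2 by this measure. Of the 9 genes, 8 were below all WT libraries in KLF12 library 1, 7 in library 2 and 2 in library 3. For these counts, and those of the highest and lowest library, the share over all genes was not computed. How unusual they are is therefore not shown. Without KLF12 library 3 the groups were separate for 7 of the 9, where 23.2% of all genes had KLF12 libraries all below WT. Without WT library 2 they were separate for 6, beside 12.1% of all genes. Leaving out any other single library kept the number at 2. Those omissions gave 13.9% (WT library 1), 11.6% (WT library 3), 11.4% (KLF12 library 1) and 16.8% (KLF12 library 2) of all genes.

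Globin transcripts, the most abundant of these cells, were set beside the 9 genes. The mean log2 FPKM of Hbb-y, Hbb-bh1, Hba-x, Hba-a1 and Hba-a2 was 10.2, 9.75 and 10.9 in WT libraries 1 to 3 and 7.75, 9.10 and 9.52 in KLF12 libraries 1 to 3. All 3 KLF12 libraries were below WT. Of the 5, 0 were called by limma, 5 were under an unadjusted p of 0.05, and their log2 differences ran from -2.00 to -1.31. The embryonic beta-like gene Hbb-y was at 1842, 1375 and 3012 FPKM in the WT libraries and 220, 558 and 972 in the KLF12 ones (limma adjusted p = 0.130). Hba-a2, an adult-type alpha globin, was at 440 ± 181 and 156 ± 83.9 FPKM (SD, n = 3; limma adjusted p = 0.190).

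Relative to that globin mean, Gata1 differed between the groups by -0.14 in log2 FPKM and Slc4a1 by -0.17, with overlapping groups. The other 7 genes had higher means relative to globin in the KLF12 group, by 0.36 for Epor, 0.46 for Alas2, 0.65 for Klf1, 0.80 for Slc25a37, 1.07 for Fech, 1.21 for Nfe2 and 1.36 for Tfrc. The globin mean itself differed by -1.52 between the groups, and the median over the 11901 genes above 0 in all libraries was 1.504 on the same relative scale, above each of the 9 values. The groups were separate for 5 of the 9, beside 64.1% of all genes tested: Nfe2, Alas2, Fech, Slc25a37 and Tfrc, narrowly so for Alas2 (-6.20 in WT library 2 against -6.16 in KLF12 library 3) and Slc25a37 (-5.83 against -5.80, in library 2 of each group). Tfrc relative to globin was -4.73, -4.58 and -5.58 in WT and -2.84, -3.83 and -4.14 in the KLF12 group. KLF12 library 1, with the least globin, had the highest ratio for 7 of the 9 genes. These ratios were formed after the values were seen and carry no test.

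**Figure D3:**
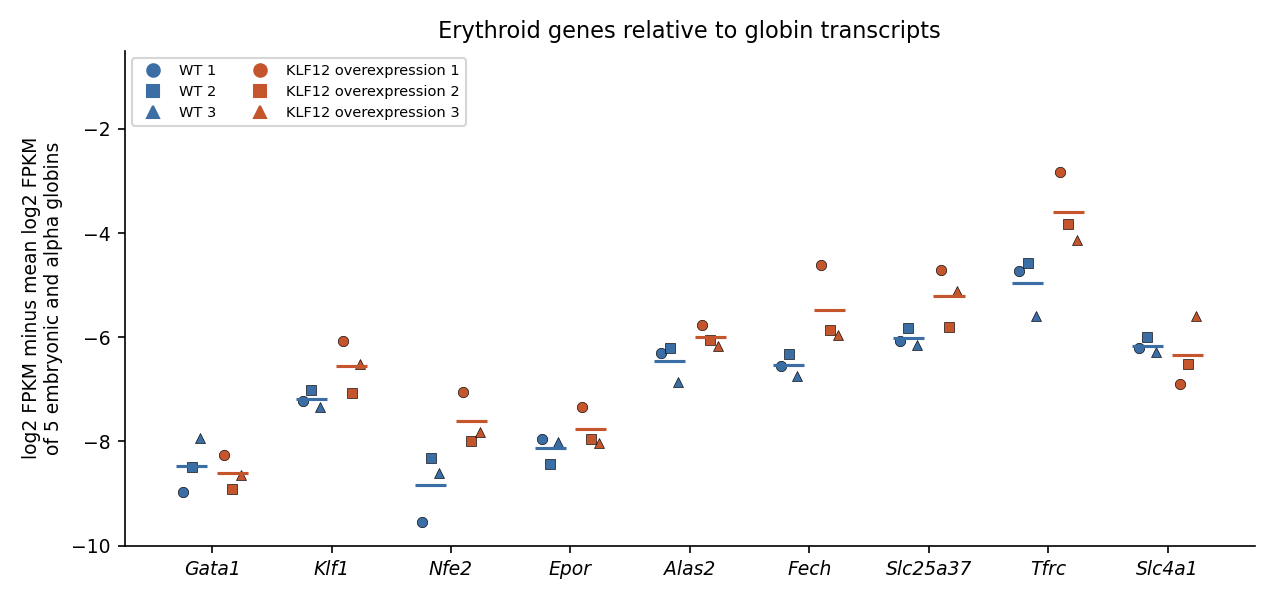
Log2 FPKM of each gene minus the mean log2 FPKM of 5 globin genes in each library (blue WT, orange KLF12 overexpression, a symbol shape per replicate number, bars at group means, n = 3). Gata1 (-0.14) and Slc4a1 (-0.17) overlap between the groups, while Tfrc and Fech lie higher in all 3 KLF12 libraries, as 64.1% of all genes do.

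Markers of other cells in the fetus and its membranes were read in the same libraries. All 15 endothelial markers were tested and 0 were called by limma (1 at an unadjusted p under 0.05), and their summed level was 187 to 194 FPKM in the WT libraries and 192 to 204 in the KLF12 group. Kdr, the VEGF receptor of endothelial cells, was at 12.7 ± 1.11 and 18.2 ± 4.59 FPKM (limma adjusted p = 0.445), and Sox7 at 2.42 ± 0.688 and 3.70 ± 0.345 (SD, n = 3; limma adjusted p = 0.492). Of the 9 megakaryocyte markers in the table, 1 had a mean of at least 1 FPKM, the integrin gene Itga2b at 1.71, 3.79 and 1.72 in WT and 1.38, 1.35 and 2.88 with KLF12 overexpressed, and of 9 macrophage and leukocyte markers 0 did. All 15 yolk sac endoderm markers had positive values and 0 were called by limma (7 at an unadjusted p under 0.05), with a median log2 difference of 1.08. Their sum was 595, 253 and 153 FPKM in WT libraries 1 to 3 and 626, 729 and 488 in KLF12 libraries 1 to 3. Apoe, an apolipoprotein, was at 160, 98.4 and 80.9 FPKM in the WT libraries and 281, 252 and 171 in the KLF12 ones (limma adjusted p = 0.132). Mttp, which loads lipoproteins with lipid, was at 2.78 ± 1.40 and 7.22 ± 1.02 FPKM (limma adjusted p = 0.109). WT library 3 had the most erythroid and the least yolk sac signal. The part of retained yolk sac in the erythroid values was not tested.

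Adult beta-globin genes and decidua markers were read as well. Whether the adult beta-globin transcripts came from maternal or fetal blood was not tested. The adult beta-globin gene Hbb-bs was at 33.6, 17.8 and 71.5 FPKM in the WT libraries and 1.18, 41.6 and 12.3 in the KLF12 ones, with overlapping groups (limma adjusted p = 0.544). Its neighbour Hbb-bt, at 11.8 ± 6.14 and 4.32 ± 0.496 FPKM, had KLF12 libraries all below WT (limma adjusted p = 0.240). The decidual prolactin-like gene Prl8a2, named after its values were seen, was at 1.13, 0.58 and 9.56 FPKM in the WT libraries and 0.56, 10.2 and 0.30 in the KLF12 ones. WT library 3 and KLF12 library 2 were the highest libraries for Hbb-bs and Prl8a2, while KLF12 library 2 was the lowest of all 6 for Hbb-bt. The summed level of 8 decidua and placenta markers was 18.2 to 33.1 FPKM in the WT libraries and 21.1 to 36.7 in the KLF12 group. Hsd11b2 was at 16.7 ± 1.24 and 20.1 ± 3.37 FPKM, and Prl2c2 at 0.917 ± 0.878 and 1.95 ± 1.70 (SD, n = 3). At 15.4 to 23.9 FPKM over the 6 libraries, Hsd11b2 was the largest part of that sum in each. The sum therefore partly masks the spread of the prolactin-like genes between libraries. Without WT library 3 and KLF12 library 2 the median log2 difference of the 9 erythroid genes was -0.44, with 8 negative values and 0 called.

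**Figure D4:**
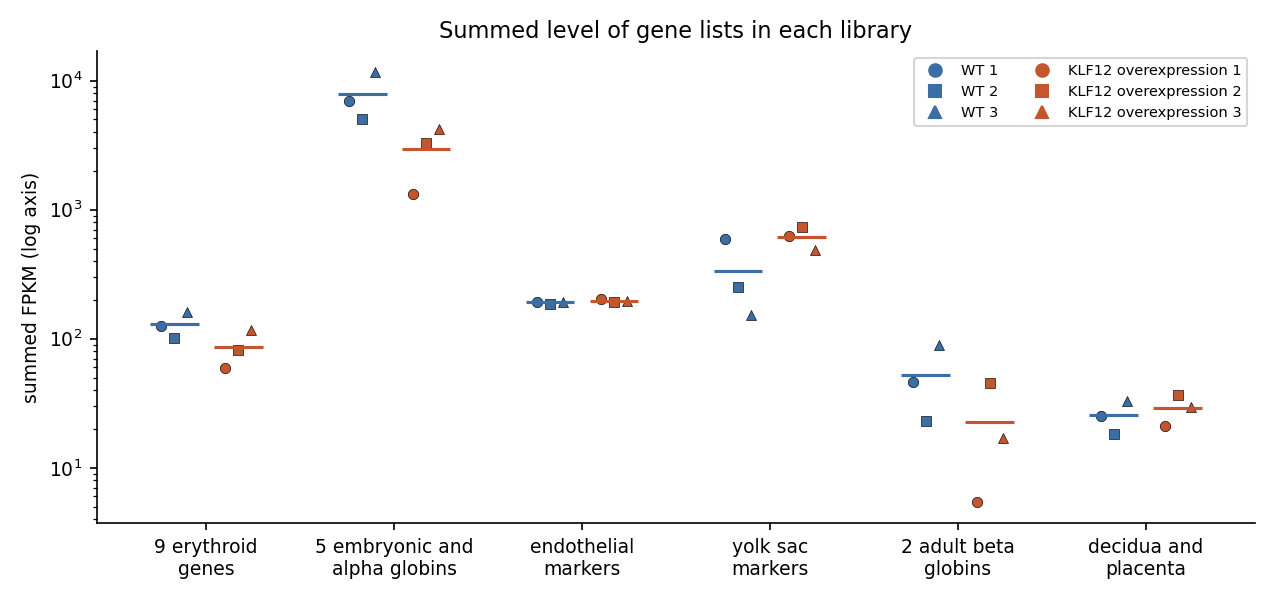
Summed FPKM (log axis) of the 9 erythroid genes and of 5 other lists in each library, with bars at group means (n = 3). The globin sum lies lower in all 3 KLF12 libraries, the endothelial sum is nearly level at 187 to 204 FPKM, and the yolk sac sum of WT library 1 (595) lies inside the KLF12 range of 488 to 729.

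**Figure D5:**
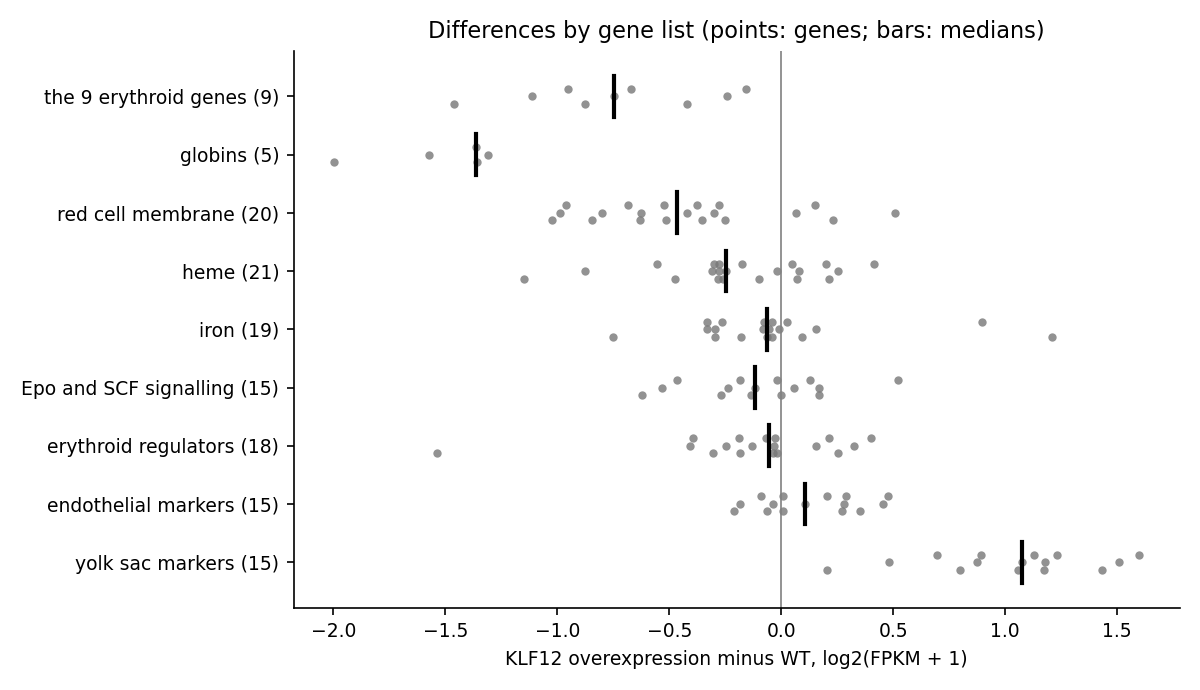
KLF12 minus WT difference on the log2(FPKM + 1) scale for the tested genes of each list (points; number of genes in brackets) with the list median as a bar. The 9 erythroid genes have a median of -0.75, between the globins (-1.37) and the other red cell membrane genes (-0.47), and the yolk sac markers one of 1.08.

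Among the genes whose log2 values over the 6 libraries were most like the mean of the 9, each centred and scaled, were Pphln1, Dda1, Rbm6, Nufip1, the unannotated row BGI_novel_G000572, Krit1, Hba-x, S1pr3 and Actr6, with Pearson r from 0.994 to 0.975 over 6 libraries. Pphln1 was at 29.3, 28.1 and 31.9 FPKM in the WT libraries and 24.6, 26.0 and 28.3 in the KLF12 ones, with overlapping groups. Among the members, r ran from 0.752 for Nfe2 and 0.775 for Tfrc to 0.986 for Klf1, each of which is part of the mean it was set against. Of the 100 pathway and globin genes tested beside the members, 12 were among the 100 most alike of 12132 genes, which is 12% of each list. They included Hba-x, Hba-a1, Hba-a2, Hbb-y, Hbb-bh1, the membrane genes Add2, Epb42 and Ank1, the heme genes Alad and Abcb10, and the iron reductase gene Steap3. These correlations share the 6 libraries and the group difference and are given as a description.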

How the data were processed

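The RNA-seq libraries, 3 WT and 3 with KLF12 overexpressed, were grouped by their titles. The authors deposited FPKM values rounded to 2 decimals. Per the submitters' processing notes, the tools included HISAT2 2.0.4, RSEM 1.2.8 and CASAVA, and the genome build was mm9. NCBI gene numbers were matched to GRCm38.p6 symbols, 16874 of 17741 rows. The depth is not in the table. A periodic step in FPKM times GENCODE M21 transcript length, with a coherence of 0.187 to 0.286, put it at roughly 15900000 to 16900000 fragments per library.

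Values were fitted as log2(FPKM + 1) with limma 3.58.1 in R 4.3.3, with a variance trend, over 12141 genes (mean of 1 FPKM or more), and p-values were adjusted over all of them (Benjamini-Hochberg, called under 0.05). The 95% intervals are per gene and were not adjusted. The scale understates the change of low genes. The fit was checked on simulated data. The genes named are the 9 members, Klf12, the called members of each list or else the 2 with the smallest unadjusted p, and the 10 genes most alike in pattern; others named were chosen after their values were seen, and 1 gene that the rule picks is not reported here. The members and lists were chosen with earlier results of these data known. Alternatives covered the pseudocount, filter, scaling, variance model, threshold, a replicate block and each library left out. Fits that leave out 2 libraries were added after seeing the data.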

Additional observations from a re-analysis of the deposited data

How the results depend on the processing

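Of the 9 erythroid genes, 9 had negative values in each setting of pseudocount, scaling, variance model, threshold or block and without a filter; a mean of at least 5 FPKM left 6 of them, all negative. The number of the 9 called was 6 with array weights (Gata1, Klf1, Epor, Alas2, Slc25a37 and Slc4a1), which gave KLF12 library 3 a weight of 0.206 and library 1 one of 3.13 and called 13.1% of all genes, and 0 to 1 with each library left out. Directions turned, without a call, for Nfe2: -0.53 to 0.078 with each library left out, 0.13 with KLF12 replicate 3 alone against WT, and 0.11 without WT replicate 3 and KLF12 replicate 2. In that lone comparison, which assumes that the library varies like WT, Slc25a37 was at 0.093, Tfrc at 0.031 and the median of the 9 at -0.20.

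Over all genes, 89 were called, against 29 without a filter, 55 as TPM, 1585 with array weights, 173 at an adjusted p under 0.1 and 17 to 326 with each library left out. Of the added fits, KLF12 replicate 3 alone gave 919, leaving out replicate 3 of both groups 55, and leaving out WT replicate 3 and KLF12 replicate 2 gave 12. The cause was not tested. No pairing by replicate number was visible: the correlations between libraries of one number, as deviations from group means, were 0.03, -0.11 and 0.04. With the replicate block 64 genes were called and 0 of the 9 erythroid genes, with an adjusted p of at least 0.149. Lower counts with a library left out come with fewer samples. The file holds no counts, so counting error was not computed.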
